A study of Mus musculus with 91 samples.

Results

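Glycolysis, the pentose phosphate pathway and glycogen metabolism were described through 36 genes in single myeloid progenitors of mouse bone marrow. The genes were taken by name from a table of 23956 gene symbols in 91 cells as the enzymes, transporters and regulators of these pathways, without a rule on their values. By role, 17 are glycolytic, 4 serve lactate production and transport, 3 the oxidative and 4 the non-oxidative pentose phosphate branch, 5 glycogen, and 3 regulate the fructose phosphate steps. All 36 were in the table, and 30 were above 0 in at least 25% of the cells, the condition set here for counting a gene.

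The cells came from C57BL/6 mice of the genotype Gfi1-R412X/- Irf8+/-, in which the R412X allele of Gfi1 stands over a minus allele and Irf8 is heterozygous. GFI1 is a transcriptional repressor needed to make neutrophils, and IRF8 is a transcription factor of the monocyte and dendritic lineages. Every cell carried this genotype, and no wild-type cell was analysed here, so no value below measures an effect of either allele. Marrow cells enriched for CD117 were sorted as Lineage- CD117+ Sca-1- CD34+ CD16/32high, and 46 are labelled GMP (granulocyte-monocyte progenitor) and 45 CD11b+ GMP-P. CD11b, encoded by Itgam, is an integrin subunit that appears as myeloid cells mature. The labels give no age and name no animal, so each population is 1 sample, and differences between them are descriptions without a test. The cells of each population also share a code that the labels do not explain, so capture or library and population cannot be told apart.

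Glycolysis breaks glucose down to pyruvate and yields ATP without mitochondria, and lactate dehydrogenase then turns pyruvate into lactate and regenerates NAD+. The oxidative pentose phosphate branch makes NADPH, which feeds the oxidative burst and the glutathione cycle of phagocytes, and the non-oxidative branch exchanges sugars between ribose phosphate and glycolysis. Glycogen is the stored form of glucose, and mature neutrophils are known to lean on glycolysis and to keep glycogen for use in tissues poor in glucose and oxygen.

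Levels are given as log2(TPM + 1), where TPM is a length-corrected share of a cell's transcripts. Differences are the mean of CD11b+ GMP-P cells minus the mean of GMP cells on that scale, and a gene is called lower or higher from a difference of 1 in size. GMP cells had a median of 5461 genes above 0 (2796 to 6383) and CD11b+ GMP-P cells 4147 (2435 to 6161). The 50 highest genes of a cell held a median of 26.9% of its TPM in GMP and 51.2% in CD11b+ GMP-P, which leaves less of the fixed total for all other genes. Over the 7174 genes that passed the detection filter, the median difference was -0.77, so differences are also given relative to that median. Elane, a granule protease of early neutrophil progenitors, was above 0 in all 91 cells. It had medians of 14.49 in GMP (3.66 to 15.72) and 13.46 in CD11b+ GMP-P (2.77 to 15.58) and differed by -3.06. The markers listed for neutrophil progenitors were Elane, Mpo, Prtn3, Ctsg, Cebpe, Gfi1, S100a8, S100a9, Camp, Ngp, Ltf and Lcn2. The summed TPM of these 12 had a median of 54800 in GMP (82.8 to 117504) and 321590 in CD11b+ GMP-P (1208 to 552846). A sum does not give the direction of each gene, and Elane, 1 of the 12, was lower in CD11b+ GMP-P. Cd34, which the sort selected for, reached 10 TPM in 41 GMP and 14 CD11b+ GMP-P cells. Itgam reached 10 TPM in 3 of 46 GMP and 24 of 45 CD11b+ GMP-P cells, and Kit, which encodes CD117, in 26 and 3. Ly6a, which encodes Sca-1, a protein the sort selected against, nevertheless reached 10 TPM in 40 GMP and 41 CD11b+ GMP-P cells. Of the markers of other lineages, 7 of 9 erythroid and megakaryocyte, 6 of 8 lymphoid and 5 of 8 macrophage genes were at 0 in every cell of each population. The lymphoid genes above 0 were Cd79b and Nkg7, and the summed TPM of the 8 lymphoid markers had a median of 2454 in GMP (3.44 to 7480) and 1017 in CD11b+ GMP-P (0 to 6230). The erythroid and megakaryocyte sum had a median of 0 in each (up to 702 and 562), and the macrophage sum 0.145 and 11.1 (up to 1675 and 619). The summed TPM of 8 monocyte markers had a median of 593 in GMP (0.19 to 5969) and 39.1 in CD11b+ GMP-P (0 to 2737), and that of 8 basophil, mast cell and eosinophil markers 9.07 (0 to 24457) and 0 (0 to 130873). The part of these differences between the populations in the values below was not tested.

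Of the 30 genes that passed the filter, 13 were lower in CD11b+ GMP-P cells and 1 higher, and the other 16 stayed under a difference of 1. Among all genes tested, 40.5% were lower and 3.09% higher, so the share of lower members, 43.3%, was near the background. Their median difference was -0.53, against -0.77 for all genes. The members did not move as a block. Glycolysis held 9 of its 12 genes that passed among the lower, with a median of -1.37, and lactate metabolism 2 of 3. No gene of the pentose phosphate pathway was called in either direction, with medians of -0.02 over 3 oxidative and 0.04 over 4 non-oxidative genes. Glycogen held 2 lower genes and the single higher gene among 5, and the 3 regulatory genes held none. Relative to the median of all genes, 4 members were lower by 1 or more (Pfkp, Tpi1, Ldha and Pfkl) and 6 higher (Pfkfb4, Rpe, Rpia, Ldhb, Gbe1 and Pygl), against 18.2% and 10.8% of all genes. For each of the 36 members the range over cells of the populations overlapped.

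**Figure D1:**
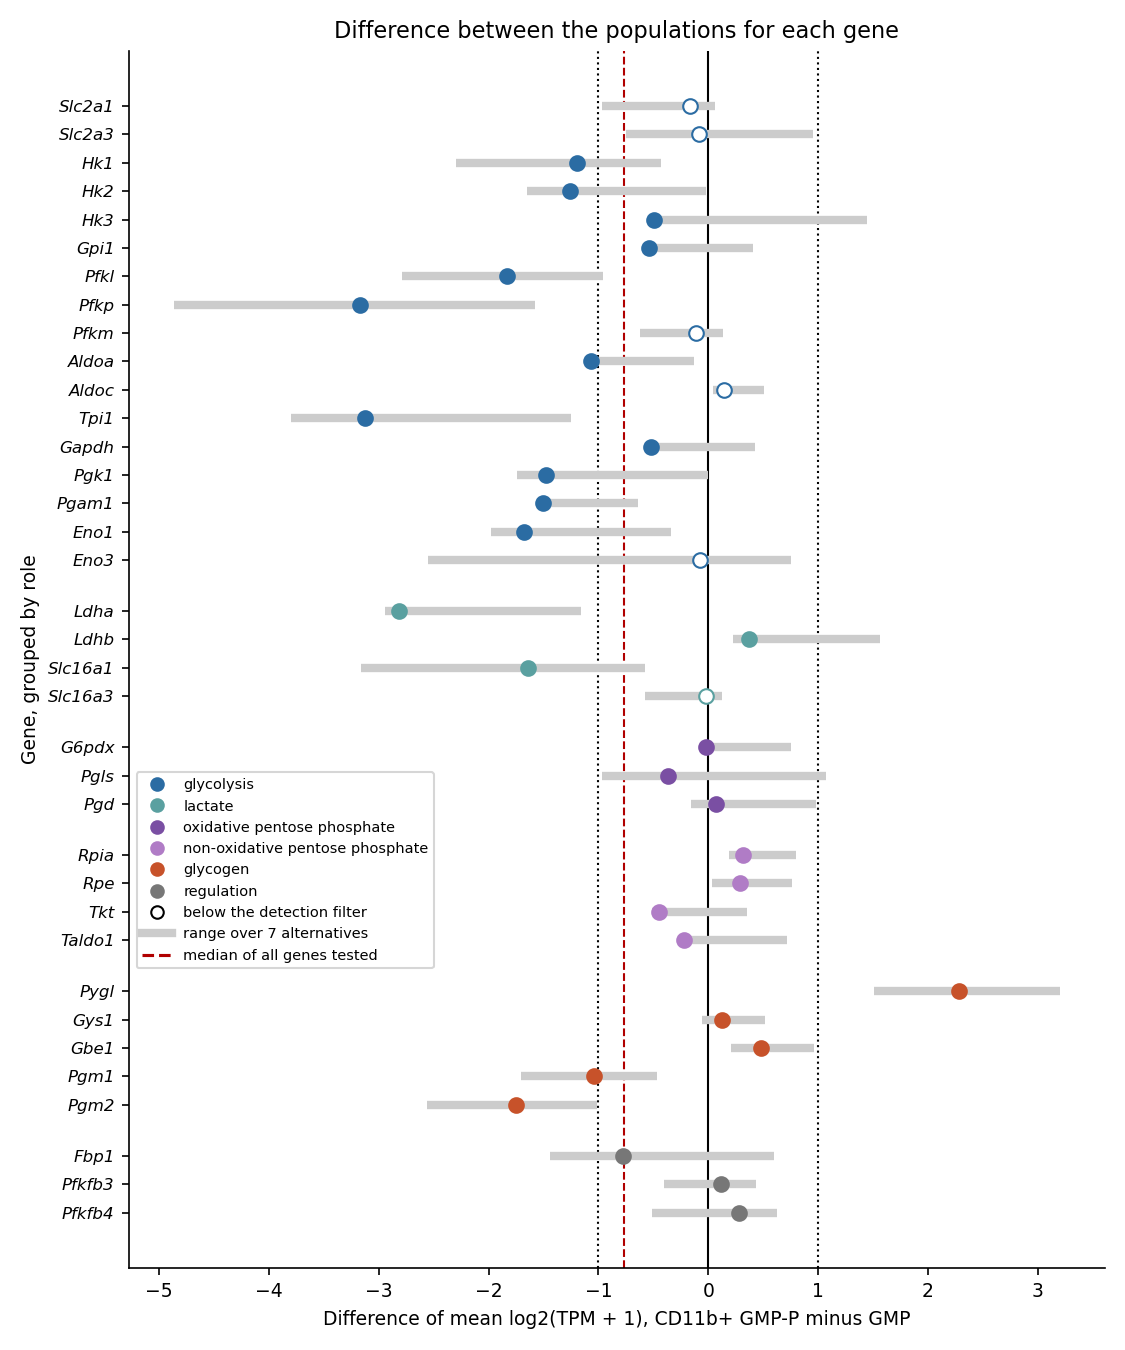
Difference of mean log2(TPM + 1), CD11b+ GMP-P minus GMP, for each of the 36 genes in order of role. Points are the main values, open points are genes under the detection filter, grey bars span 7 alternative calculations, dotted lines mark -1 and 1, and the dashed line marks the median of all genes tested at -0.77. Pfkp, Tpi1 and Ldha lie farthest to the left, Pygl farthest to the right at 2.28, and the pentose phosphate genes lie around 0.

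The size of the glycolytic group depended on the calculation. Its lower genes numbered 9 of 12, or 75%, against 40.5% of all genes. They numbered 3 of 12 when cells were rescaled by the median of ratios, against 25.6% of all genes, and 6 when each cell was rescaled without its 50 highest genes, against 36.9%. They numbered 3 between cells of a shared range of genes detected (3947 to 5645 genes, 26 GMP and 21 CD11b+ GMP-P cells), against 21.9%, and 4 without the 14 CD11b+ GMP-P cells with Elane under 9, against 25.8%. Under the median of ratios and in the shared range the group's share was thus near that of all genes. The 14 CD11b+ GMP-P cells with Elane under 9 had at most 3841 genes above 0, so the shared range leaves all of them out too. Elane was also under 9 in 3 GMP cells, with a median of 3067 genes above 0, and these hold several of the lowest GMP values below, among them those of Gpi1 and Gapdh. Leaving out the low-Elane cells of both populations, a calculation chosen after seeing the data, gave 5 of 12 lower glycolytic genes against 29.4% of all genes. The group's median stayed below 0 in each of the 7 alternatives, from -1.70 with a pseudocount of 0.1 TPM to -0.53 in the shared range. Relative to the median of all genes it was -0.60, and -0.63 to -0.10 over the alternatives. In all 7 and in that added calculation, Pfkp, Tpi1, Ldha and Pgm2 were called lower and Pygl higher. Relative to the median of all genes, Pfkp and Pygl stayed beyond 1 in size in all 7. On that relative scale the smallest differences in size were -0.77 for Tpi1, -0.87 for Ldha and -0.67 for Pgm2. The windows upstream of 4 of these 5 genes are shown here.

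The 250 bases before each listed transcription start were taken from RefSeq for the mouse build GRCm38.p6, for 35 of the 36 genes. The searched letters were CACGTG, the E-box bound by MYC among other factors, and ACGTG or GCGTG, the core recognised by hypoxia-inducible factors, on both strands. Every CACGTG also holds ACGTG, so the counts of these motifs overlap. It holds ACGTG on each strand, so a single CACGTG is counted once per strand in the shorter motif. Capitals mark each match, and each sequence is written 5′ to 3′ on the strand of its gene.
Ldha: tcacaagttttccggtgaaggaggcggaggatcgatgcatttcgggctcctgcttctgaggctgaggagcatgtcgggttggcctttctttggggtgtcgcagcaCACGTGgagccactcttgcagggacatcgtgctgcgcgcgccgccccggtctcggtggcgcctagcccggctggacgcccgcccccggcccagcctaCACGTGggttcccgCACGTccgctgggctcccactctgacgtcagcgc
Pfkp: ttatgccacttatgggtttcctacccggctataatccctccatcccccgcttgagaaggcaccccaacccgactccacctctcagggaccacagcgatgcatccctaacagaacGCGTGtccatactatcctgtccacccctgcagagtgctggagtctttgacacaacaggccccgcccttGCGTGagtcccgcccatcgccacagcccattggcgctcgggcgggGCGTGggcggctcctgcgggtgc
Tpi1: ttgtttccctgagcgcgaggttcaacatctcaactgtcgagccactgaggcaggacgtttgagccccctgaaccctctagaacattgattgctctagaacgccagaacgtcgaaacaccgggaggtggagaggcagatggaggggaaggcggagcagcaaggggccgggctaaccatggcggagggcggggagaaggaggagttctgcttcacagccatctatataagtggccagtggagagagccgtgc
Pygl: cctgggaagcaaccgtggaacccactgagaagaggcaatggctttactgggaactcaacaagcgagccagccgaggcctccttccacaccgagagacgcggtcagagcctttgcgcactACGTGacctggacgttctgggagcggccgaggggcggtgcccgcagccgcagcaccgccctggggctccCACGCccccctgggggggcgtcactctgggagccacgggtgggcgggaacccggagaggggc
The Ldha window, chr7:46845554-46845803 on the plus strand, lies before the first of 2 listed starts and held 2 CACGTG and 5 matches to the shorter motif. Each CACGTG is counted on both strands among these 5, so they are not 5 separate sites. The Pfkp window, chr13:6648772-6649021 on the minus strand, held 3 of the shorter motif and no CACGTG. That of Tpi1, chr6:124814159-124814408 on the minus strand, held neither. Pygl, higher in CD11b+ GMP-P, had 2 matches to the shorter motif in chr12:70227684-70227933, also on the minus strand. For the shares below, a gene with several listed starts counted when the window before any of them held the motif. ACGTG or GCGTG was present before 29 of the 35 members (82.9%) and before 11226 of 27025 genes (41.5%). It was present in 12 of the 13 lower members, Tpi1 being the exception, and in 12 of the 17 that passed the filter and were not lower. CACGTG occurred before 4 of 35 members (Pfkm, Ldha, Slc16a1 and Pfkfb3), or 11.4%, and before 6.86% of all genes. The members' windows had a median GC content of 59.2% and those of all genes 52.4%. Neither GC content nor the number of listed starts was matched in these shares. A match is a stretch of letters and not a measured binding site.

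Glucose enters through the GLUT transporters, and both measured members were detected in few cells. Slc2a1, encoding GLUT1, ran from 0 through a median of 0 to 9.39 in GMP and to 7.88 in CD11b+ GMP-P, with 4 and 3 cells at 10 TPM or more. Slc2a3, encoding the high-affinity GLUT3, had a median of 0 in each population and reached 8.21 and 10.08, with 4 cells at 10 TPM in each. Neither passed the detection filter, and 7 of 46 GMP and 7 of 45 CD11b+ GMP-P cells had either transporter at that level. The CD11b+ GMP-P cells with Slc2a3 at 10 TPM were 4 of the 14 with Elane under 9, and none of the 31 others, where its highest value was 0.28. A count of 0 of 31 allows a share of up to 9.68%.

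Hexokinases trap glucose in the cell as glucose phosphate. Hk3, the form typical of myeloid cells, ran from 0 through a median of 6.60 to 9.75 in GMP, and from 0 through 5.16 to 10.16 in CD11b+ GMP-P cells, differing by -0.49. Hk2, the inducible form, had 0, 4.53 and 8.89 as lowest, median and highest in GMP and 0, 2.85 and 10.47 in CD11b+ GMP-P cells, differing by -1.26. Hk1, the broadly expressed form, had medians of 0.53 and 0 and a difference of -1.19, with 14 and 5 cells at 10 TPM. The order of the forms was the same in each population. Among cells with a summed hexokinase level of 10 TPM or more, Hk3 was the highest in 27 of 43 cells of GMP (62.8%, with 46.7 to 77 as the 95% Clopper-Pearson interval) and in 22 of 38 of CD11b+ GMP-P (57.9%, 40.8 to 73.7). Hk2 was the highest in 15 cells of each population and Hk1 in 1 of each. Cells often held more than a single form, since at least 2 hexokinases reached 10 TPM in 25 GMP and 18 CD11b+ GMP-P cells. By mean TPM, Hk3 made up 64.4% of the family in GMP and 63.9% in CD11b+ GMP-P.

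Gpi1, the isomerase that makes fructose phosphate, was at 10 TPM or more in all 91 cells. It ran from 4.43 through 10.28 to 11 in GMP and from 4.71 through 9.75 to 11.05 in CD11b+ GMP-P cells, differing by -0.54.

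Phosphofructokinase, the committed step of glycolysis, showed the lowest detection in CD11b+ GMP-P after glucose transport. Pfkp, the platelet-type subunit, had 0, 5.90 and 8.18 as lowest, median and highest in GMP, where 30 of 46 cells reached 10 TPM and 7 were at 0. In CD11b+ GMP-P it had 0, 0 and 8.25, where 9 of 45 cells reached 10 TPM and 30 were at 0, a difference of -3.18. The highest CD11b+ GMP-P values were as high as those of GMP, and fewer cells held them. Pfkl, the liver-type subunit, had 0, 2.74 and 8.48 in GMP and 0, 0 and 8.20 in CD11b+ GMP-P cells, differing by -1.83, with 21 and 9 cells at 10 TPM. Pfkm, the muscle-type subunit, was above 0 in 4 of 91 cells, and 1 GMP cell held it at 10 TPM. At least 1 of the 3 subunits reached 10 TPM in 35 of 46 GMP cells (76.1%, 61.2 to 87.4) and in 16 of 45 CD11b+ GMP-P cells (35.6%, 21.9 to 51.2). In cells of the shared range of genes detected the counts were 19 of 26 and 7 of 21, and without the CD11b+ GMP-P cells of low Elane 35 of 46 and 12 of 31. Pfkp was the highest subunit in 21 of 35 cells (60%) of GMP and in 9 of 16 (56.3%) of CD11b+ GMP-P, and Pfkl in the remaining 14 and 7. Pfkp and Pfkl reached 10 TPM in the same cell in 16 GMP cells and 2 CD11b+ GMP-P cells. On the other strand, Pfkp overlaps Pitrm1, which itself differed by -1.52, and reads of overlapping genes cannot be separated in libraries that do not mark strand. In all, 14 of the 36 genes overlap another gene of the table.

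Aldolase and triosephosphate isomerase split the sugar and interconvert the pieces. Aldoa, the aldolase of most tissues, ran from 8.95 through 10.73 to 11.97 in GMP and from 1.28 through 10.12 to 11.28 in CD11b+ GMP-P cells, differing by -1.06. The medians lay closer together than the means, because a few CD11b+ GMP-P cells had low values. Aldoc, the brain-type aldolase, was at 0 in every GMP cell and above 0 in 2 CD11b+ GMP-P cells. Tpi1 ran from 0.36 through 8.81 to 11.13 in GMP and from 0 through 5.49 to 10.29 in CD11b+ GMP-P cells, differing by -3.12. It reached 10 TPM in 43 of 46 cells in GMP (93.5%, 82.1 to 98.6) and in 30 of 45 in CD11b+ GMP-P (66.7%, 51 to 80), and 7 of the latter were at 0. In the shared range of genes detected, 25 of 26 and 15 of 21 cells reached 10 TPM. Gapdh, of the next step, was at 9.17 or more in all of these CD11b+ GMP-P cells. Spsb2, which overlaps Tpi1 on the other strand, had mean levels of 0.47 and 0.74.

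The payoff phase runs from glyceraldehyde phosphate to phosphoenolpyruvate and holds Gapdh, the member with the highest median in each population. Gapdh ran from 6.33 through 11.78 to 12.68 in GMP and from 9.17 through 11.17 to 12.41 in CD11b+ GMP-P cells, differing by -0.52 (0.25 after subtraction of the median of all genes). Pgk1, which makes the first ATP of the pathway, ran from 0.88 through 8.44 to 10.42 and from 0 through 7.98 to 11.95, a difference of -1.48. Between cells of the shared range the Pgk1 difference was 0.00. That range also leaves out every CD11b+ GMP-P cell with Elane under 9, and leaving out only those cells gave -0.44. The part of the number of genes and that of the low-Elane cells cannot be told apart there. Pgam1, the mutase, ran from 0 through 9.47 to 11.58 and from 0 through 8.22 to 10.78, a difference of -1.50. Eno1, the main enolase, ran from 5.93 through 10.68 to 12.20 and from 0 through 10.29 to 11.89, a difference of -1.68, with 4 CD11b+ GMP-P cells at 0. Eno1 has a near-identical copy, Eno1b, which had medians of 0.57 and 1.74, and reads could have been split between the copies. Eno3, the muscle enolase, was above 0 in 10 of 91 cells and led in none. The Pkm row, for the pyruvate kinase that ends the pathway, was not among the 36 and ran from 2.68 through 10.52 to 11.57 and from 6.98 through 9.85 to 11.33, a difference of -0.71.

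**Figure D2:**
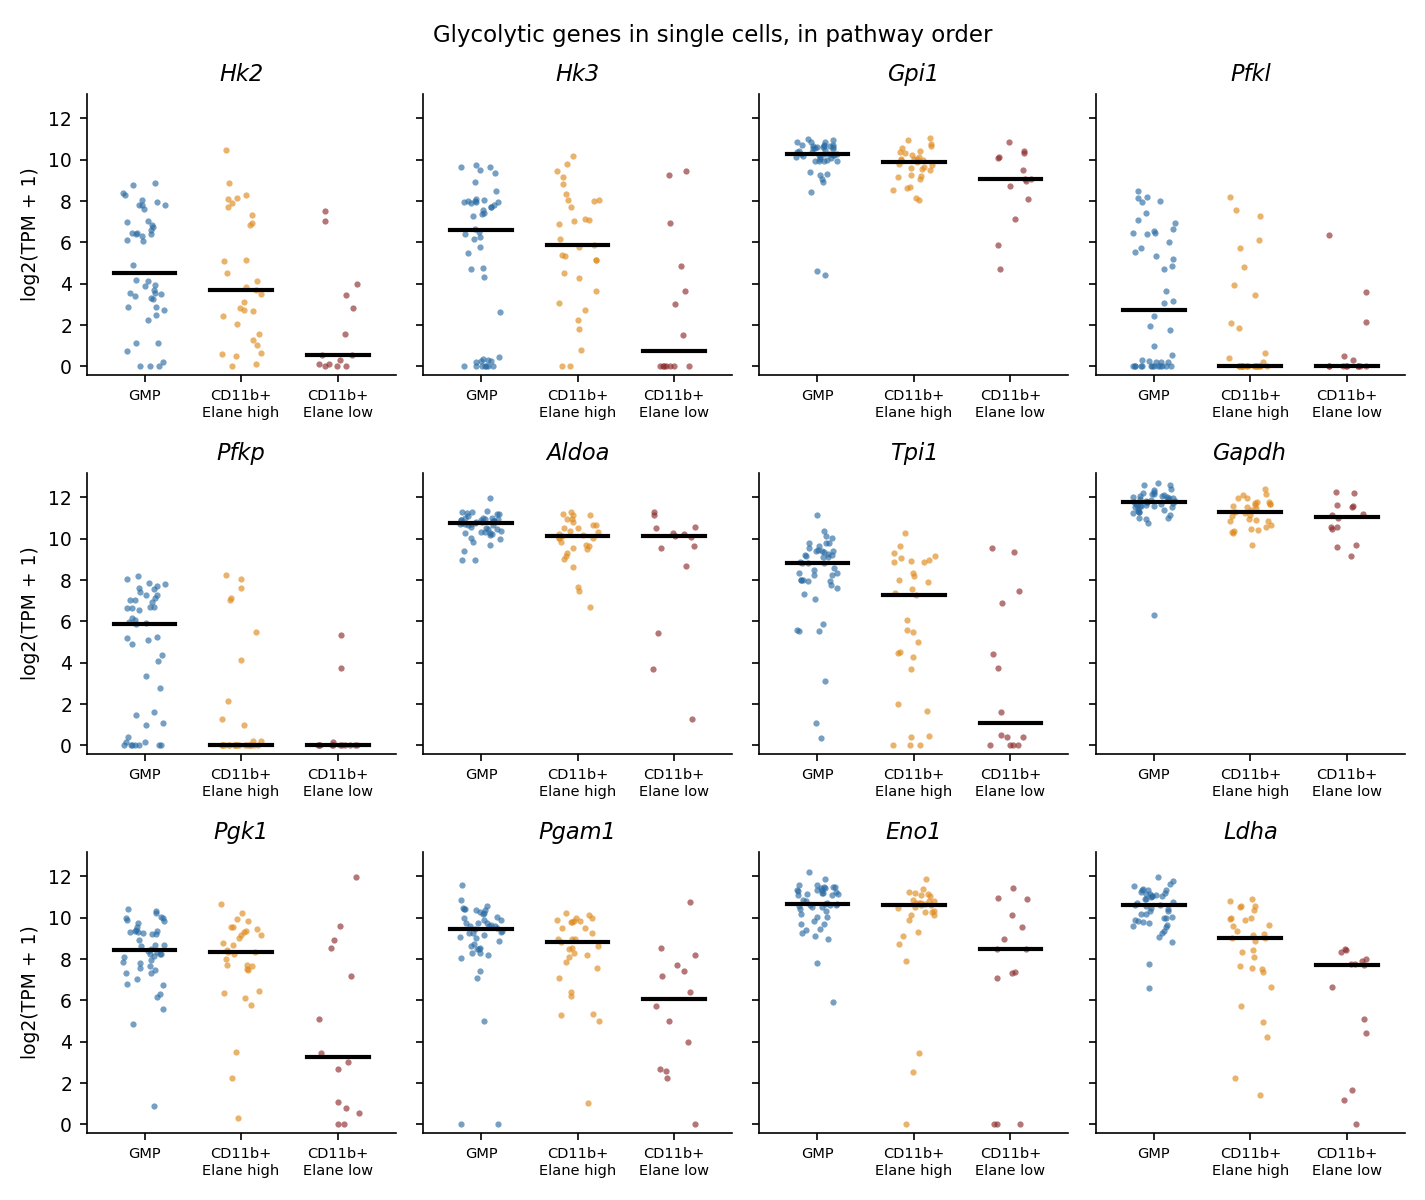
Log2(TPM + 1) of 12 genes in each cell (points) with medians (black bars), for 46 GMP cells, 31 CD11b+ GMP-P cells with Elane of 9 or more (Elane high) and 14 with Elane under 9 (Elane low). Gapdh, Gpi1 and Aldoa have medians above 9 in the 3 columns, with single low cells (Aldoa down to 1.28 in the Elane low column, Gpi1 down to 4.43 in GMP), whereas Pfkl and Pfkp have medians of 0 in the CD11b+ GMP-P columns and Tpi1 spreads from 0 to 10.29.

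Steps were then counted in each cell, taking a step as filled when any of its genes reached 10 TPM. Of the 10 steps from glucose transport to enolase, GMP cells filled a median of 9 (5 to 10) and CD11b+ GMP-P cells 8 (4 to 10). All 10 were filled in 5 cells of GMP (10.9%, 3.62 to 23.6) and in 1 of CD11b+ GMP-P (2.22%, 0.0562 to 11.8). At least 9 were filled in 33 and 11 cells, and fewer than 6 in 1 and 6 cells. The gap was uneven along the pathway. Glucose transport was filled about as seldom in each population, and isomerase, aldolase and Gapdh in all cells but 1. Aldoa, with mean TPM of 1688 in GMP and 1144 in CD11b+ GMP-P, was called lower and still filled its step. Pfkp had mean TPM of 78.3 and 25.5. A count at 10 TPM thus does not show a lower level in genes far above that floor. Hexokinase was filled in 43 of 46 and 35 of 45 cells, phosphoglycerate kinase in 45 and 36, the mutase in 44 and 40, and enolase in 46 and 39. Medians of 9 and 8 also held in the shared range of genes detected, without the CD11b+ GMP-P cells of low Elane, and without those of both populations, and a floor of 50 TPM gave 8.5 and 7. Within a population the number of filled steps had a Spearman's rho with the number of genes detected of 0.24 over 46 GMP cells and 0.49 over 45 CD11b+ GMP-P cells, values which share the same libraries.

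**Figure D3:**
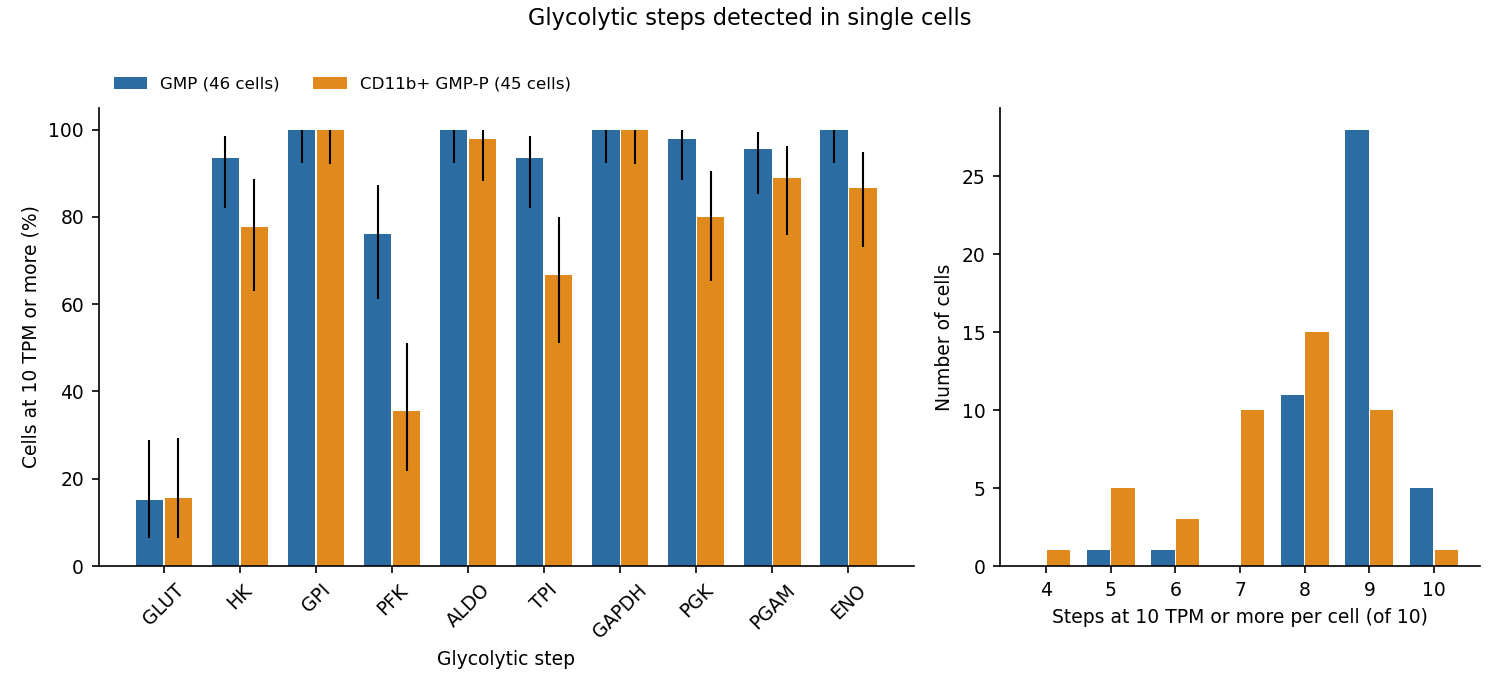
Left, percent of cells with at least 1 gene of each glycolytic step at 10 TPM or more, with 95% Clopper-Pearson intervals as error bars. Right, number of cells by how many of the 10 steps they fill. The bars differ most at phosphofructokinase (PFK, 76.1% and 35.6%) and triosephosphate isomerase (TPI, 93.5% and 66.7%) and are alike at glucose transport (GLUT), GPI, ALDO and GAPDH.

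The genes that turn pyruvate into lactate showed a shift between isoforms. Ldha, whose subunit favours lactate production, ran from 6.62 through 10.60 to 11.97 in GMP and from 0 through 8.32 to 10.92 in CD11b+ GMP-P cells, differing by -2.82. Ldhb, whose subunit favours the reverse reaction, had 0, 0 and 9.10 in GMP and 0, 2.02 and 10.57 in CD11b+ GMP-P cells, differing by 0.37, with 20 and 21 cells at 10 TPM. Ldha thus had the lower level in CD11b+ GMP-P while Ldhb differed by less than 1. Ldha was the higher of the pair in 46 of 46 GMP cells (100%, 92.3 to 100) and in 36 of 43 CD11b+ GMP-P cells (83.7%, 69.3 to 93.2). In the other 7 CD11b+ GMP-P cells (16.3%, 6.81 to 30.7) Ldhb was the higher. Ldha had a mean of 1633 TPM over GMP cells and 502 TPM over CD11b+ GMP-P cells, Ldhb had 87.2 and 139 TPM, and Ldhb made up 5.07% and 21.6% of the pair. Which of the pair is higher within a cell does not depend on how that cell is scaled. Without the CD11b+ GMP-P cells of low Elane the Ldhb difference was 1.57 and between cells of the shared range 1.22, while Ldha stood at -2.09 and -1.16.

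Lactate leaves the cell through monocarboxylate transporters. Slc16a1, encoding MCT1, ran from 0 through 1.98 to 6.87 in GMP and from 0 through 0 to 7.73 in CD11b+ GMP-P cells, differing by -1.64, with 4 and 27 cells at 0. Slc16a3, encoding MCT4, was above 0 in 17 of 91 cells and reached 10 TPM in 3 of each population. Bsg, the chaperone that carries these transporters to the membrane, was also lower, at -1.76.

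**Figure D4:**
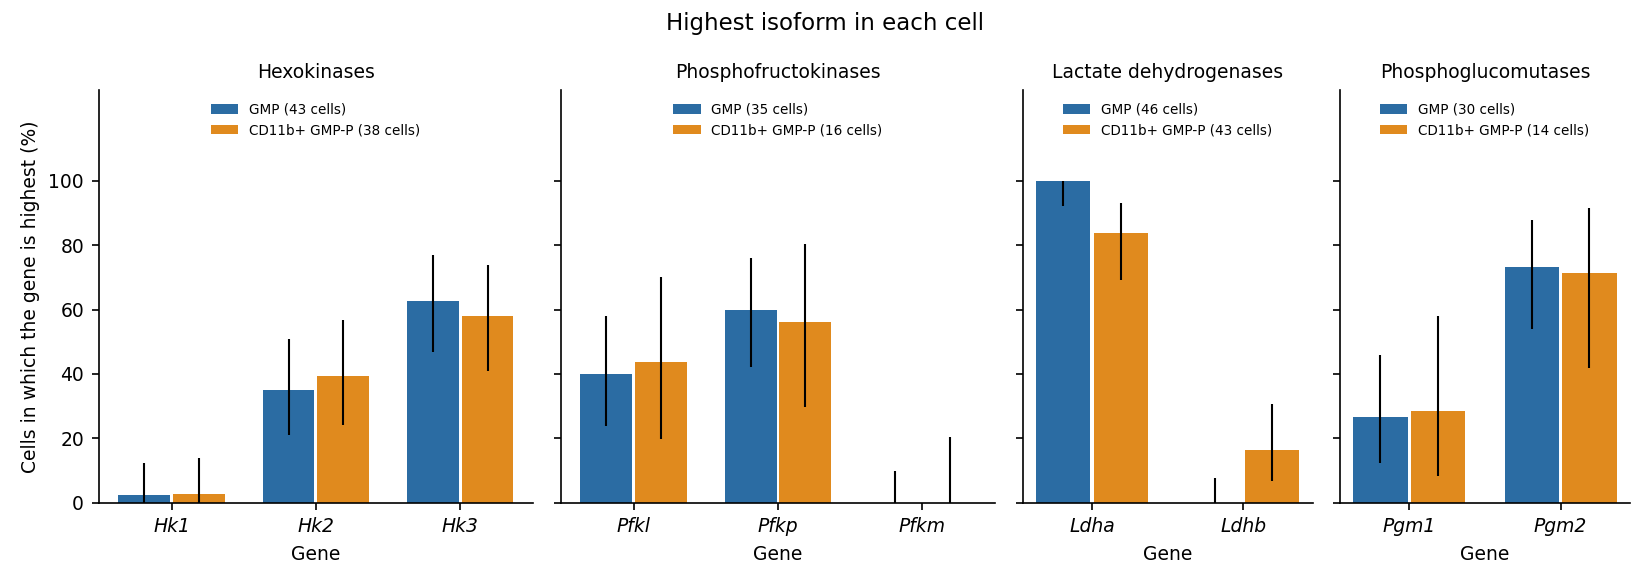
Percent of cells in which each isoform has the highest TPM of its family, among cells whose summed family level reaches 10 TPM, with 95% Clopper-Pearson intervals as error bars. The bars of the hexokinases, phosphofructokinases and phosphoglucomutases are in the same order in each population, and Ldhb is highest in no GMP cell and in 16.3% of CD11b+ GMP-P cells.

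The oxidative pentose phosphate branch differed little between the populations. G6pdx, the dehydrogenase that commits glucose to this branch and makes NADPH, ran from 0 through 7.38 to 9.18 in GMP and from 0 through 6.80 to 11.16 in CD11b+ GMP-P cells, differing by -0.02. Pgls, the lactonase, ran from 0 through 5.89 to 9.26 and from 0 through 5.74 to 9.98, a difference of -0.37. Pgd, the second NADPH-producing dehydrogenase, ran from 0.63 through 6.15 to 10.16 and from 1.41 through 5.43 to 9.58, a difference of 0.07. Pgd was above 0 in all 91 cells. The 3 genes together held a median of 0.0459% of a cell's TPM in GMP and 0.0449% in CD11b+ GMP-P, while the 17 glycolytic genes held 1.08% and 0.676%. G6pdx overlaps Ikbkg, which differed by -0.69.

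The non-oxidative branch likewise had no called gene. Tkt, the transketolase, had medians of 6.81 in each population, ranges of 0 to 9.75 and 0 to 9.70, and a difference of -0.45. Taldo1, the transaldolase, ran from 0 through 9.25 to 10.86 and from 2.74 through 9.07 to 10.90, a difference of -0.22. Rpe, the ribulose phosphate epimerase, had 0, 0.34 and 7.20 in GMP and 0, 1.06 and 8.50 in CD11b+ GMP-P cells, differing by 0.29. Rpia, the isomerase to ribose phosphate, was above 0 in 36 of 91 cells and differed by 0.31. Relative to the median of all genes, Rpe stood at 1.06 and Rpia at 1.08.

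Around this pathway, 13 of 14 further listed genes were in the table and 10 passed the filter, of which 6 were lower and 1 higher, with a median of -1.03, beside 40.5% and 3.09% of all genes and their median of -0.77. The lower genes included the ribose phosphate kinases Prps1 (-1.45) and Prps2 (-1.34), which start nucleotide synthesis, and ribokinase, Rbks (-1.15). The higher gene was Gsr, glutathione reductase, which uses NADPH to regenerate glutathione. It ran from 0 through 6.89 to 8.75 in GMP and from 1.84 through 8.57 to 10.75 in CD11b+ GMP-P cells, differing by 1.79 that stayed between 1.54 and 2.70 over the 7 alternatives. At least 10 TPM of Gsr was present in 42 of 46 and 44 of 45 cells, so the difference lay in the level and not in how many cells held the transcript.

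Glycogen genes went in different directions. Pygl, the liver-type glycogen phosphorylase that releases glucose phosphate, ran from 0 through 3.57 to 9.07 in GMP and from 0 through 6.49 to 10.24 in CD11b+ GMP-P. Its difference of 2.28 was the largest upward difference of the 36 and ranged from 1.51 to 3.21 over the 7 alternatives. It reached 10 TPM in 24 of 46 cells in GMP (52.2%, 36.9 to 67.1) and in 36 of 45 in CD11b+ GMP-P (80%, 65.4 to 90.4). Pgm2, a mutase of sugar phosphates, ran from 0 through 3.41 to 9.14 in GMP and from 0 through 0 to 7.71 in CD11b+ GMP-P cells, differing by -1.75, with 23 and 12 cells at 10 TPM. Pgm1 was above 0 in 29 of 91 cells and differed by -1.04. RefSeq lists each of these symbols as a synonym of the other, so which of the mutases each row measures cannot be told from the table. Gys1, the glycogen synthase outside the liver, had medians of 0.11 and 0.53 and highest values of 8.44 and 7.94, a difference of 0.13. It overlaps Ruvbl2 on the other strand, which differed by -4.07. Gbe1, the branching enzyme, was above 0 in 43 of 91 cells and differed by 0.48.

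Among 24 further genes listed with glycogen, 11 passed the filter, of which 5 were lower and 1 higher, with a median of -0.61. The share of lower genes, 45.5%, was near the 40.5% of all genes. Ugp2, which makes the UDP-glucose that glycogen synthase uses, was the higher gene. Ugp2 had 0, 0.12 and 7.51 in GMP, where 8 of 46 cells reached 10 TPM (17.4%, 7.82 to 31.4), and 0, 3.74 and 8.84 in CD11b+ GMP-P, where 25 of 45 did (55.6%, 40 to 70.4), a difference of 2.41. The genes with the largest downward differences were Gaa, the lysosomal glucosidase (-1.98), Pgm3, listed here by its name only (-1.37), and Phkb, a phosphorylase kinase subunit (-1.32). Pygl and Ugp2, which act in breakdown and synthesis of glycogen, thus had the same direction.

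The 3 regulatory genes were detected in few cells. Fbp1, which runs the phosphofructokinase step backwards, was above 0 in 27 of 91 cells, had highest values of 9.37 and 8.08, and differed by -0.78. Pfkfb3 and Pfkfb4 set the level of the phosphofructokinase activator fructose-2,6-bisphosphate. They reached 10 TPM in 2 and 8 GMP cells and in 3 and 9 CD11b+ GMP-P cells, with differences of 0.12 and 0.28. Pfkfb4 was the higher of the pair in 8 of 10 GMP and 9 of 11 CD11b+ GMP-P cells with a summed level of 10 TPM.

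Genes outside the 36 that make or remove glucose phosphate were also read. Of 29 further genes listed with glycolysis, 7 passed the filter. Of these, 2 (28.6%) were lower and 1 (14.3%) higher, beside 40.5% and 3.09% of all genes. The lower genes, Bsg and Pgam5, are not enzymes of the pathway, and the higher gene was Adpgk. Adpgk, a glucokinase of the endoplasmic reticulum that uses ADP in place of ATP, had 0, 0.28 and 7.66 in GMP and 0, 6.07 and 10.16 in CD11b+ GMP-P cells, differing by 3.41, with 11 of 46 and 33 of 45 cells at 10 TPM. In the same compartment G6pc3, the phosphatase that releases glucose from glucose phosphate and whose loss causes neutropenia, went the other way. G6pc3 had 0, 7.26 and 9.48 in GMP and 0, 0 and 8.72 in CD11b+ GMP-P cells, differing by -3.95, with 37 of 46 and 13 of 45 cells at 10 TPM. Slc37a4, which carries glucose phosphate into that compartment, reached 10 TPM in 9 and 5 cells and differed by -0.44. Of the 5 genes of this cycle, 3 passed the filter and G6pc3 was the only gene called, a lower share of 33.3% beside 40.5% of all genes. Adpgk and G6pc3 kept their calls in all 7 alternatives, at 1.94 to 4.74 and -5.56 to -1.83.

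**Figure D5:**
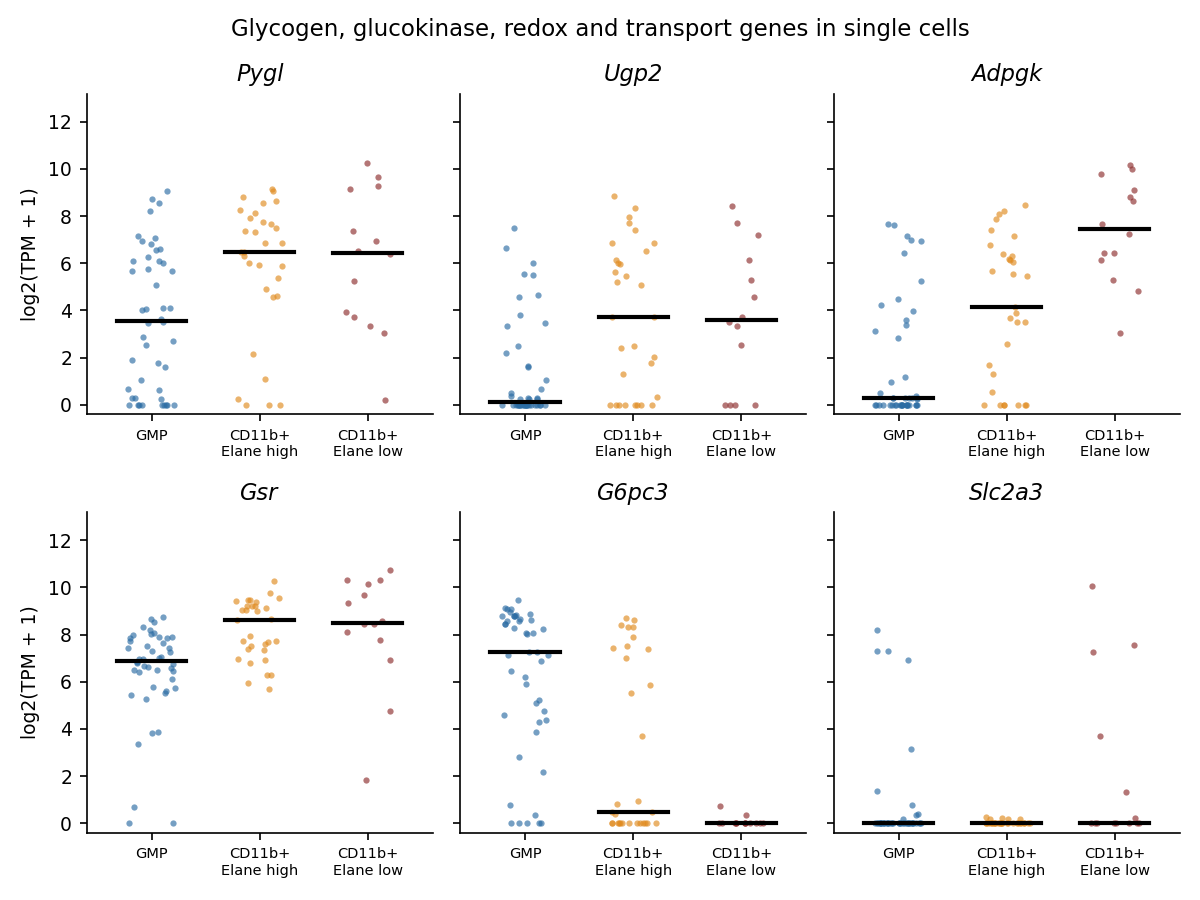
Log2(TPM + 1) of Pygl, Ugp2, Adpgk, Gsr, G6pc3 and Slc2a3 in each cell (points) with medians (black bars), for 46 GMP cells, 31 CD11b+ GMP-P cells with Elane of 9 or more (Elane high) and 14 with Elane under 9 (Elane low). Pygl, Ugp2 and Gsr have similar medians in both CD11b+ GMP-P columns, Adpgk is higher and G6pc3 lower in the Elane low column, and Slc2a3 above 0.28 appears only in GMP and the Elane low cells.

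Genes downstream of glycolysis and regulators upstream of it were also counted. Of 14 genes for pyruvate entry into mitochondria, 10 passed the filter and 5 were lower, led by Pdhb (-2.77) and Dld (-2.19), subunits of pyruvate dehydrogenase, with a median of -1.04. The share of lower genes there was 50% against 40.5% of all genes. Of 18 regulators of glycolytic genes, 13 passed and 3 were lower (23.1%), with a median of -0.70. They were Trp53 (-3.95), Myc (-3.54) and Nfe2l2 (-1.58), which encode p53, MYC and NRF2. Hif1a, the oxygen-regulated activator of glycolysis, differed by -0.68. Over all further lists, 22 of 53 genes that passed were lower (41.5%) and 3 higher (5.66%), with a median of -0.85, near the 40.5%, 3.09% and -0.77 of all genes.

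The 14 CD11b+ GMP-P cells with Elane under 9 had a median of 3148.5 genes above 0, against 4525 in the other 31, and filled a median of 6 and 8 glycolytic steps. In the low-Elane cells 17 of the 30 members were lower by 1 or more and none higher, beside 48.2% and 2.23% of all genes tested, and the members' median was -1.10 against -0.95 for all genes. Pgk1 had a mean of 4.49 in low-Elane and 7.84 in the other cells, Hk3 2.76 and 5.73, and Ldhb 0.83 and 4.68. Against these, Gapdh had means of 10.90 and 11.22 and Pygl 6.07 and 5.80, so both were held at similar levels in cells that differed in many other genes. Gsr had means of 8.25 and 8.21, and Ugp2 of 3.75 and 3.80. Adpgk was higher in the low-Elane cells, with means of 7.40 and 4.09 and 13 of 14 and 20 of 31 cells at 10 TPM. G6pc3 was present at 10 TPM in 13 of the 31 cells and in none of the 14, which allows a share of up to 21.4%. The part of the number of genes detected in these differences was not tested.

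Cells were also divided by Mki67, a marker of proliferating cells, at 10 TPM. In GMP, 21 cells were at or above that level and 25 below, and 3 members were lower and 5 higher in the Mki67-positive cells, beside 5.1% and 13.7% of all genes. The higher genes were Hk3 (means of 6.58 and 4.22), all 3 oxidative pentose phosphate genes (G6pdx 6.61 and 5.47, Pgls 6.00 and 4.54, Pgd 6.69 and 5.68) and Gbe1 (2.20 and 1.11). The lower ones were Pfkl (2.17 and 4.22), Pfkfb4 (0.50 and 1.96) and Hk1 (1.07 and 2.43). The Mki67-positive GMP cells had at least 3942 genes above 0 and the others at least 2796. The low-Elane GMP cells, with a median of 3067 genes, thus lie partly among the Mki67-negative cells. Their part in these calls was not tested. In CD11b+ GMP-P, with 31 cells above and 14 below, 2 members were lower and 4 higher, beside 3.54% and 22.1% of all genes. There Ldhb had means of 4.23 and 1.84, Pgls 5.24 and 3.94, and Tkt 5.92 and 4.91, whereas G6pdx had 5.97 and 5.96. Rpia, also higher, had 2.10 and 0.83, and the lower genes were Pfkp (0.92 and 2.38) and Rpe (2.14 and 3.40). Pgls was the only gene called in the same direction in each population. These are differences between cells of 1 sample and carry no test.

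Single genes of the set followed each other weakly from cell to cell. Over the 78 pairs of the 13 members above 0 in at least 90% of cells, Spearman's rho had a median of 0.02 in 46 GMP cells (-0.31 to 0.35) and 0.11 in 45 CD11b+ GMP-P cells (-0.23 to 0.45). In CD11b+ GMP-P 66 of the 78 values were above 0, and the highest was between Gapdh and Eno1. All values come from the same libraries and share each cell's number of detected genes, with which the 13 genes had values of -0.17 to 0.35 in GMP and 0.15 to 0.55 in CD11b+ GMP-P.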

How the data were processed

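Single cells were captured on a Fluidigm C1 chip, and libraries were made with the SMARTer and Nextera XT kits, per the labels' protocols. Neither kit adds molecular identifiers or keeps strand, so amplified copies are counted as reads and overlapping genes share them. The authors deposited 1 table of log2 values. Undoing the logarithm with a pseudocount of 1 gave sums of 999999 to 1.00008e+06 per cell, which identifies log2(TPM + 1). RSEM, without a version, and the build mm9 are named per the submitters' processing notes. The aligner was not given in the sources used here, nor was the gene annotation. TPM keeps no read depth, 80.3% of values were listed at 0, and a 0 can be a missed transcript, so precision is described by genes above 0 per cell and the spread over cells. The highest correlation between 2 cells was 0.736, and no doublet caller was run.

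Groups came from the labels. Means, shares, isoform leaders and filled steps were computed in Python 3.11.15 with pandas 2.3.3 and scipy 1.17.1. The filter was above 0 in 25% of the 91 cells, the threshold of a call a difference of 1, and the floor 10 TPM. Intervals (95%, Clopper-Pearson) and limits on a count of 0 (3 counts of the total) cover counting error only. No p-value was made, since cells of 1 sample are not replicates. All 36 genes are accounted for. Those above 0 in at least 50% of cells are given with their range, and up to 4 genes of each further list by size of difference, plus Pkm, G6pc3 and Slc37a4 for their roles. Names of all 36 matched RefSeq, whose promoter windows are of GRCm38.p6 and not of mm9. The calculation was tested on simulated data. The members, lists and divisions by Elane and Mki67 were chosen with earlier results of these data known. Alternatives were pseudocounts of 0.1 and 10, the ratio of mean TPM, 2 rescalings, 2 restrictions of cells and a further one chosen after seeing the data, 2 other filters and floors of 1 and 50 TPM.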

Additional observations from a re-analysis of the deposited data

How the results depend on the processing

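No paired analysis was possible because the labels number cells and not replicates, each population is 1 sample, and no test was made. Against 13 members lower and 1 higher, a pseudocount of 10 TPM gave 7 lower (beside 17.6% of all genes), the log2 ratio of mean TPM + 1 gave 7 (28.5%) and rescaling by the median of ratios 6 (25.6%). The shared range of genes detected gave 6 lower and 4 higher (Hk3, Ldhb, Pgls and Pygl), beside 21.9% and 7.33% of all genes. Leaving out the CD11b+ GMP-P cells with Elane under 9 gave 7 lower and 2 higher (Ldhb and Pygl), beside 25.8% and 3.8%. Leaving out the 3 GMP cells with Elane under 9 as well, a setting chosen after seeing the data, gave 8 lower and 2 higher (again Ldhb and Pygl), beside 29.4% and 3.15%. A pseudocount of 0.1 TPM gave 14 of 30 lower (57% of all genes), and cells rescaled without the 50 highest genes 10 of 30 (36.9%). No filter gave 13 of 36 (23.2%), and a filter of 50% of either population 12 of 25 (51.8%). These lower counts were within 1.5 times the main count, but the shares of all genes beside them ran from 23.2% to 57%. Pgk1 turned from -1.48 to 0.000727 in the shared range, where Pfkp was also the leading subunit in 85.7% of 7 cells. Rescaling by the median of ratios moved the median of all genes from -0.77 to -0.40 and gave Gapdh 0.43 and Gpi1 0.41 in place of -0.52 and -0.54. The causes were not tested. Of 252 single values over the 36 members and 7 alternatives, 249 stayed within 1 SD over cells of the main value. The sign differed from the main one in 43, of which 42 were of genes that were not called, such as Gapdh and Gpi1, and 1 was that of Pgk1. The SD over cells is wide, so staying within it says little about a call. Hk2 (SD of 2.68 and 3.07) went from -1.26 to -0.02 in the ratio of mean TPM and stayed within it. Of the 7 alternatives, the lower call was kept in 1 for Hk2 and Aldoa and 2 for Pgam1. It was kept in 3 for Pgk1, Eno1 and Pgm1, 4 for Hk1 and Slc16a1, and 6 for Pfkl. The ratio of mean TPM gave Eno3 -2.56, with 3 cells at 10 TPM in each population. Slc2a3 could not be ranked in the shared range, where no CD11b+ GMP-P cell held either transporter at the floor. Levels near 10 TPM rest on few reads, and the depth behind them is unknown.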
